A study of Mus musculus with 18 samples.

Results

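The cells of an implanted biomaterial scaffold were compared with the cells of the spleen in mice without a tumour. The comparison rests on 6 of the 18 libraries of the series: healthy scaffold at days 7, 14 and 21, and healthy spleen at the same days, with 1 library per tissue and day and the day as the pair. All animals were female BALB/cJ mice, 7 to 8 weeks old at the start and 9, 10 or 11 weeks old when the tissues were taken. Both healthy groups received no tumour cells and were matched in day to mice given 2000000 4T1-tdTomato-luc2 cells, a labelled mouse mammary carcinoma line, in a mammary fat pad. The labels name neither the material and site of the scaffold nor the number of animals in a library. P-values therefore rest on the spread between libraries, which may be technical. In the main comparison of genes this spread was a trend shared across genes and not each gene's own. Of 26397 cell barcodes in the series 19761 were kept, 5153 of them in these 6 libraries: 3660 from healthy scaffold and 1493 from healthy spleen.

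A porous implant is filled within days by neutrophils, monocytes and macrophages, which digest debris through lysosomal proteases, remodel matrix and can fuse into foreign-body giant cells, while fibroblasts lay down collagen around it. The spleen is a lymphoid organ. Its white pulp is packed with follicular B cells and naive T cells that enter and leave by homing receptors such as Ccr7, and its red pulp holds macrophages that recycle iron from red cells, with reserves of monocytes and granulocytes. In library sums of this kind, fewer cells of a type and less RNA per cell cannot be told apart.

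Transcripts were counted by molecular tags (UMIs), so copies of 1 molecule count once, and levels are given as CPM, a gene's UMIs scaled to 1e+06 kept UMIs of its library. The kept libraries held 747, 1634 and 1279 cells on days 7, 14 and 21 in healthy scaffold, against 331, 1135 and 27 cells in healthy spleen. Their kept totals were 2321888, 2279164 and 3076663 UMIs in healthy scaffold, against 553900, 1184460 and 19698 UMIs in healthy spleen. The spleen library of day 21 therefore stands apart: 1 UMI in it is worth 50.8 CPM. In the files it had 513 barcodes, and 463 of them also occurred in the healthy scaffold library of that day, where only 1 of the 463 had 5 or more times its UMIs on the spleen side and 170 had 5 or more times their UMIs on the scaffold side. A shared barcode was assigned to the library where its UMIs were 5 or more times those in any other of that day, and to none otherwise. By this rule 29.97% of the scaffold barcodes and 94.74% of the spleen barcodes of day 21 stayed unassigned. The shared counts were 149 barcodes on day 7 and 30 on day 14, and none remained shared after assignment.

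**Figure D1:**
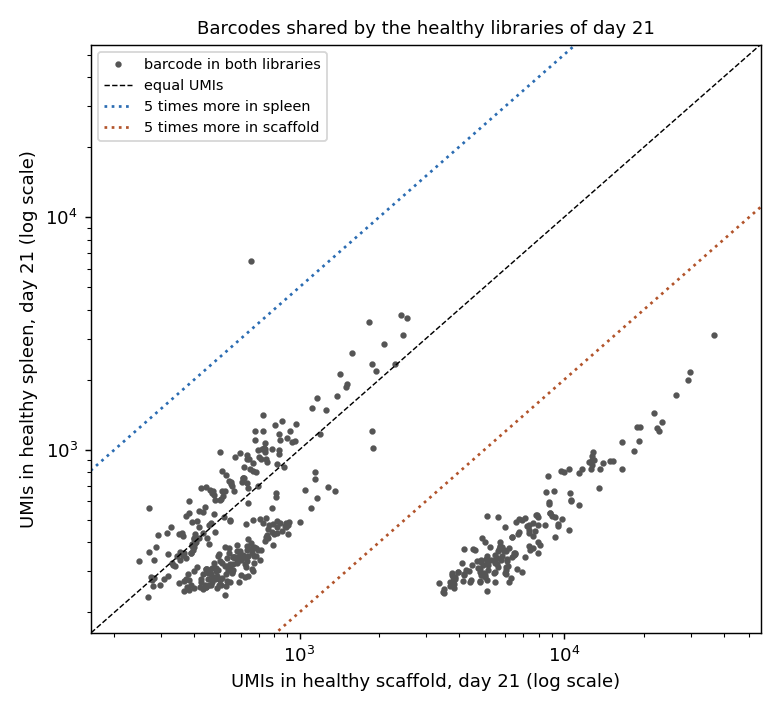
UMIs per barcode in healthy spleen (vertical, log scale) against healthy scaffold (horizontal, log scale) for the 463 barcodes found in both libraries of day 21. Each point is a barcode, the dashed line marks equal UMIs and the dotted lines a ratio of 5. A single point lies above the upper dotted line and 170 lie at or below the lower one.

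The barcodes themselves are printed because results at day 21 and day 7 rest on few of them. In the spleen library of day 21 the first barcode below held 6477 of the 19698 kept UMIs, or 32.9%, and occurred in all 6 libraries of the day with at most 929 UMIs in another. A pair of further kept barcodes differed from it in the base shown in capitals and held 741 and 347 UMIs.
most UMIs: ggtgattcagtt
1 base away: ggGgattcagtt
1 base away: gTtgattcagtt
On day 7 the kept barcodes of both tissues fell partly into families alike in their first 11 bases, with the last base in capitals here, which held 1922, 1953, 2559 and 1605 UMIs in the spleen library.
family, A: tacgcgtgtttA
family, C: tacgcgtgtttC
family, G: tacgcgtgtttG
family, T: tacgcgtgtttT
Keeping only the best barcode of each family would take out 167 of 747 cells in healthy scaffold and 93 of 331 in healthy spleen at day 7, so shares at that day may count 1 cell more than once. UMI sums are not changed by such a split where all of its barcodes are kept.

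Macrophage-like cells were the largest named class in healthy scaffold, and B and T cell-like cells the largest in healthy spleen. Macrophage-like cells made up 16.7 ± 4.85% of kept cells in healthy scaffold and 0.0294 ± 0.0509% in healthy spleen (SD, n = 3 each), with 651 cells against 1 cell. This count depends on the naming. In scaffold 45 cells (cluster 18) had 8 of 10 macrophage markers higher, and both they and 19 spleen cells (cluster 20) stayed unnamed. Cluster 20 was led by genes that include Vcam1, Spic and Slc40a1, known from red pulp macrophages. A larger unnamed scaffold cluster (cluster 5, 392 cells) held 47.9% of the scaffold UMIs of C3ar1, 39.1% of Ms4a7 and 51.1% of Folr2. The macrophage-like share therefore does not cover all scaffold cells with macrophage genes. B cell-like cells made up 0.961 ± 0.683% in healthy scaffold and 51.3 ± 9.96% in healthy spleen, and T cell-like cells 1.86 ± 0.4999% and 23.2 ± 11.0%. In edgeR counts of cells with day as block, 6 of 12 named classes differed at an adjusted p under 0.05. The log2 ratio of scaffold over spleen was 8.00 ± 1.27 for macrophage-like cells (SE, adjusted p = 9.92e-06), -5.89 ± 0.84 for B cell-like cells (adjusted p = 3.76e-06) and -3.68 ± 0.80 for T cell-like cells (adjusted p = 0.000492). An exact 2-sided permutation test of 3 against 3 libraries cannot go below p = 0.1, and gave that value for each of these 3 classes. The spleen libraries of days 7 and 14 alone held 52.6% and 60.5% B cell-like cells, against 1.74% and 0.673% in healthy scaffold.

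The remaining called classes were small. Fibroblast-like cells were 5, 61 and 72 in healthy scaffold, against 0, 2 and 0 in healthy spleen (log2 4.47 ± 1.25, edgeR adjusted p = 0.00366). Epithelial cell-like cells, led by Prlr, Krt18 and Krt8, were 0, 44 and 7 in healthy scaffold, with 0 in each spleen library, which at day 14 allows a share of up to 0.264%. Gamma-delta T cell-like cells, with Il17a and Tcrg-V6, were 1, 8 and 22 in healthy scaffold and 0 in each spleen library. Several calls were lost with fewer libraries, and some log2 ratios fell as well. With all days the log2 ratio was 7.11 for the epithelial class and 4.93 for the gamma-delta class. The fibroblast class was not called without day 14 (log2 5.67) nor the T cell-like class without day 7 (-3.46). The epithelial class was not called without day 7 (7.76) or without day 14 (1.67), the day that held 44 of its 51 cells. The gamma-delta class was not called without day 7 (5.44), day 14 (3.73) or day 21 (5.00), nor among cells with at least 400 genes (2.95, edgeR adjusted p = 0.256). With every barcode kept in each library no class was called. Neutrophil-like cells ranged from 1.35% to 16.8% between the scaffold days, against 0% to 1.76% in healthy spleen, and did not pass the test (log2 1.49 ± 0.84, edgeR adjusted p = 0.134). It passed without day 14 (log2 2.90, edgeR adjusted p = 0.0336) and without the day block (2.53, edgeR adjusted p = 0.0475). Monocyte-like cells were 6.10 ± 3.00% in healthy scaffold and 3.21 ± 3.64% in healthy spleen and did not pass (log2 1.45, edgeR adjusted p = 0.134). They passed at a coarser clustering (2.97, edgeR adjusted p = 0.000855) and with the best barcode of each family (2.27, edgeR adjusted p = 0.0136), a setting that also split off a plasma cell-like class lower in scaffold (-5.49, edgeR adjusted p = 0.000627).

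**Figure D2:**
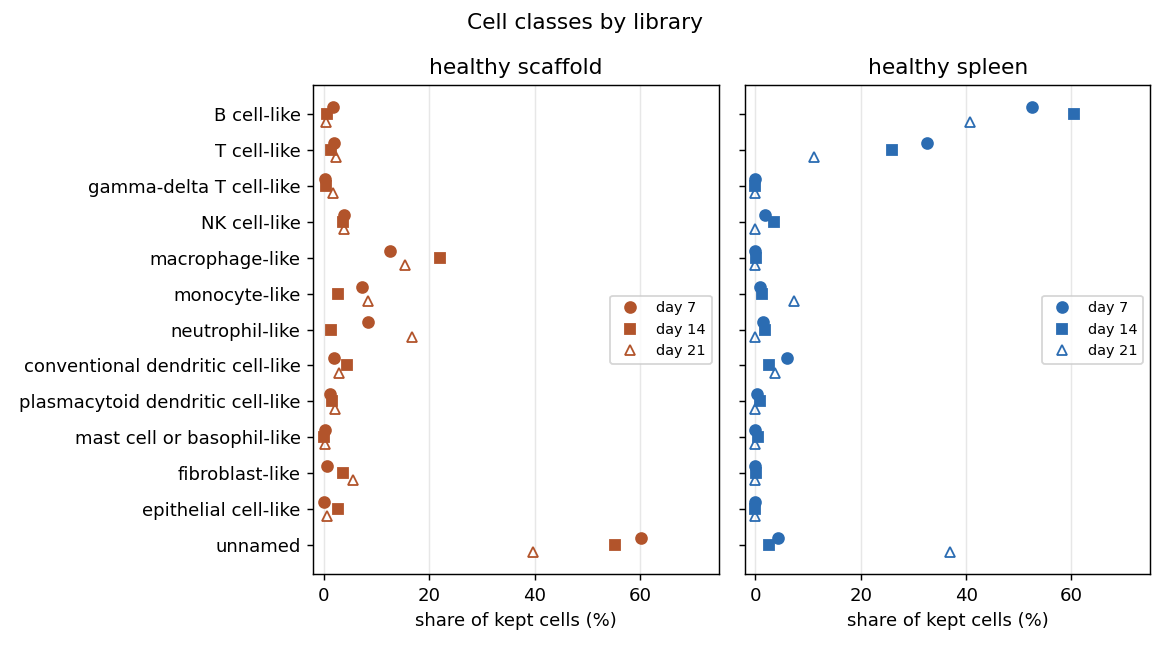
Share of kept cells (%) in 12 named cell classes and the cells left unnamed, by library, healthy scaffold in the left panel and healthy spleen in the right. Each point is 1 library, with the day as its shape and open triangles for day 21. Macrophage-like cells lie between 12.6% and 22.0% in scaffold, B cell-like cells between 40.7% and 60.5% in spleen.

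Cells left without a name were 51.7 ± 10.7% in healthy scaffold and 14.6 ± 19.4% in healthy spleen, and they are called by cluster number. For 6 of these 8 clusters fewer than 3 fixed markers of any class were higher. Cluster 18 had no macrophage marker among its 10 leading genes, and cluster 20 had 6 of 8 erythroid markers higher beside leading genes of another class. Cluster 0 (566 cells, all scaffold) was led by Cxcl3, Mmp19, Ccl24, Clec4n and Fn1. Cluster 3 (417 cells, 414 of them scaffold) was led by genes that include Mmp12, Gpnmb, Ctsl and Lpl. Cluster 5 (392 cells, all scaffold) was led by Gpnmb, Fabp5, Ctsl and Atp6v0d2, and held 28.9% of all scaffold UMIs. Cluster 15 (82 cells, all scaffold) was led by Mmp9, Acp5 and Ctsk, and cluster 18 (45 cells, all scaffold) by Lyve1, Cd209g and Cd209f. Cluster 20 (19 cells, all spleen) was led by Vcam1, Spic and globin genes. Clustering and these shares used the same genes, so the leading genes are a description.

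Across all genes, 1426 of 9223 tested genes were higher in healthy scaffold and 818 were lower, which is 15.5% and 8.87% (edgeR quasi-likelihood test with day as block, Benjamini-Hochberg adjusted p under 0.05). Without day 21, 2018 genes (20.5%) were higher and 1757 (17.9%) lower of 9826 tested. The split leaned less to the scaffold side when library totals alone were the scale, with 1416 higher and 1238 lower. Without day 7 the counts were 150 and 64, and without day 14 they were 236 and 101. With every barcode kept in each library, shared ones included, the same fit called 0 genes higher and 3 lower, and 1946 higher and 1745 lower once day 21 was also left out. All tested genes have a median log2 ratio of 0.05, and a shift of that size lies under the values below. A gene found in a single tissue passes the filter on low counts through that tissue alone, so each list's counts and medians are descriptions to read against these percentages.

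**Figure D3:**
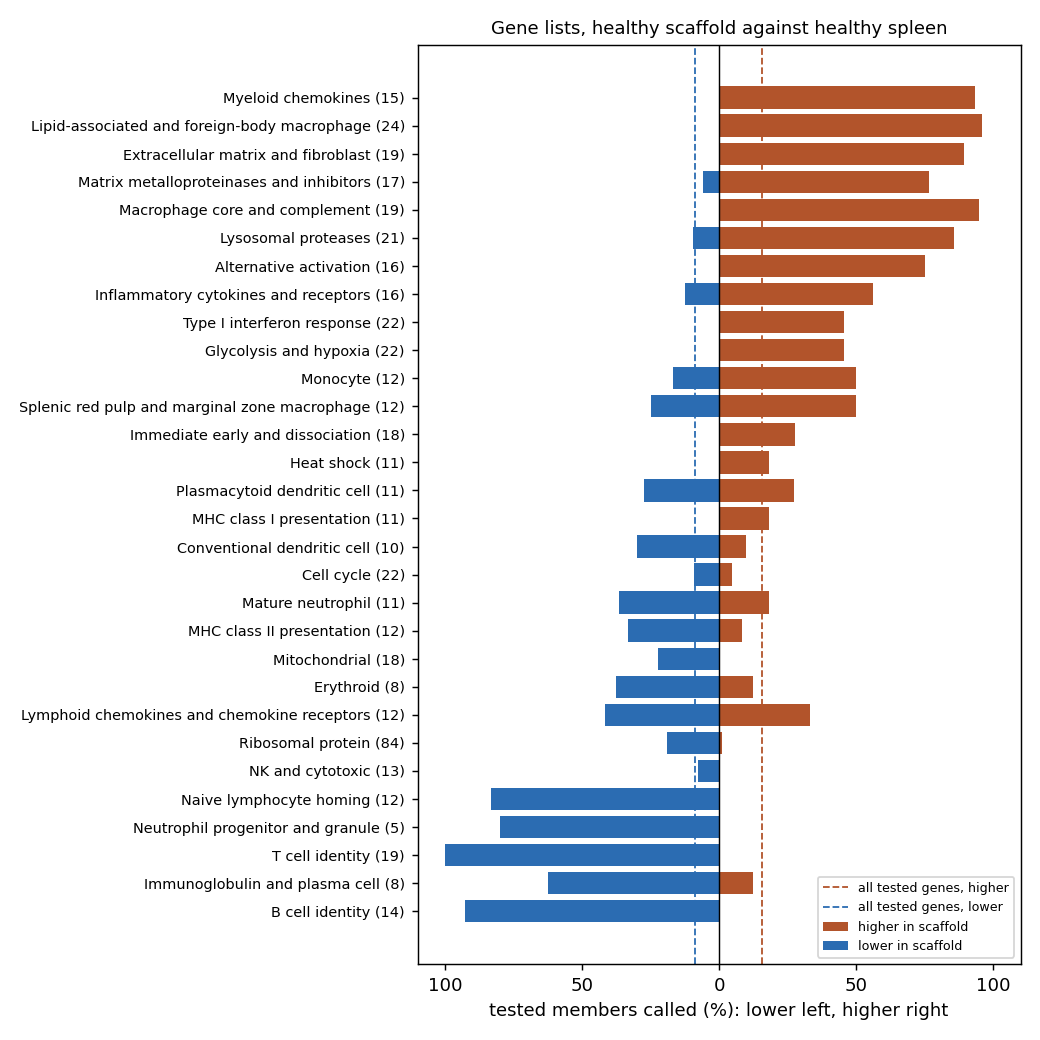
Share of tested members called higher (right) or lower (left) in healthy scaffold than in healthy spleen for 30 gene lists with at least 5 tested members, number tested in brackets. Dashed lines mark the shares over all tested genes, 15.5% higher and 8.87% lower. Macrophage, lipid, lysosomal, protease, matrix and chemokine lists lie to the right, B, T and homing lists to the left.

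The gene with the largest rise was Ctsk, cathepsin K, the collagen-cleaving protease of osteoclasts and giant cells. It had 1224, 1056 and 828 CPM on days 7, 14 and 21 in healthy scaffold, against 0 UMIs in every healthy spleen library. With 7795 UMIs in scaffold, and a limit of 3 UMIs over the 1758058 kept spleen UMIs, it was at least 595-fold higher in scaffold. Its UMIs came from 816 scaffold cells, 48.2% of them from cluster 15 and 31.5% from cluster 5. Retnla, a secreted marker of alternatively activated macrophages, had 9.91, 355 and 231 CPM in healthy scaffold, against 0 UMIs in spleen, and was at least 118-fold higher. Retnla was low on day 7 in scaffold, and its UMIs lay in dendritic cell-like (38.3%), macrophage-like (28.9%) and cluster 18 (23.7%) cells.

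Most of the other genes with the largest rises also had 0 UMIs in all 3 spleen libraries. Pmp22, a peripheral myelin protein made in many cell types, was at least 77.5-fold higher in scaffold, where it had 159, 104 and 132 CPM. Cxcl14, a chemokine, was at least 61.6-fold higher and Fam20c, a kinase of secreted proteins, at least 50.8-fold. The corresponding bounds were 31.0-fold for Mt3, a metallothionein, 31.6-fold for Cav1, the coat protein of caveolae, 30.1-fold for Penk, the enkephalin precursor, and 28.6-fold for Gm10485. Ccl8, a monocyte-attracting chemokine, had 626, 792 and 1157 CPM in healthy scaffold, against 1 UMI in all of healthy spleen, a ratio of 1562 with a counting interval of 280.2 to 61700.1. Healthy lung libraries were also at hand. Ccl8 had 0 UMIs there as well, while Ctsk averaged 99.3 ± 8.85 CPM and Retnla 287 ± 249 CPM (SD, n = 3).

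Macrophage genes rose as a group. Of 20 core macrophage and complement genes 19 were tested, 18 were higher and none lower (background 15.5%), with a median log2 of 3.75. Without day 7 the count was 10, without day 14 it was 13, and with all barcodes kept 0. C3ar1, the receptor for the complement fragment C3a, had 478, 318 and 307 CPM in healthy scaffold, against 1.81, 0.844 and 0 CPM in healthy spleen, where it had 2 UMIs. Pf4, a chemokine of platelets and tissue macrophages, had 305, 535 and 456 CPM in healthy scaffold, against 0, 1.69 and 0 CPM in healthy spleen. Folr2, a folate receptor of resident macrophages, had 243, 129 and 167 CPM, against 1.81, 0 and 0 CPM. The 3 genes were high in every scaffold library and rested on 1 or 2 spleen UMIs each. Ms4a7 also had few spleen UMIs and rose by 6.73 ± 0.67 on the log2 scale (SE, edgeR adjusted p = 7.17e-21). Cd163, a haemoglobin scavenger receptor, did not pass (log2 -0.49).

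Lipid-handling and foreign-body genes were higher nearly throughout. Of 24 genes, all tested, 23 were higher and none lower, with a median log2 of 4.65, or 4.56 with genes at 0 UMIs set to their bound. The count was 15 without day 7 and 17 without day 14. Apoe, the lipid carrier of macrophages, had 7184, 11013 and 13052 CPM in healthy scaffold, against 294, 363 and 102 CPM in healthy spleen. This is 5.38 ± 0.45 on the log2 scale (SE, edgeR adjusted p = 2.77e-30), and 46.6% of its scaffold UMIs lay in macrophage-like cells. Lpl, lipoprotein lipase, had 4601, 3685 and 3464 CPM, against 18.1, 39.7 and 355 CPM, and its difference was 6.42 (edgeR adjusted p = 8.58e-29). Cd63, a lysosomal tetraspanin, had 1153, 2219.7 and 1362 CPM, against 1.81, 39.7 and 0 CPM. In none of these genes did the scaffold and spleen values overlap. The members of the list that drive fusion, Dcstamp, Ocstamp and Atp6v0d2, passed the test. Dcstamp was at least 13.6-fold higher (0 spleen UMIs), Ocstamp had a ratio of 18.8 on 1 spleen UMI with a counting interval of 3.28 to 751, and Atp6v0d2, a proton pump subunit, differed by 7.75 on the log2 scale.

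**Figure D4:**
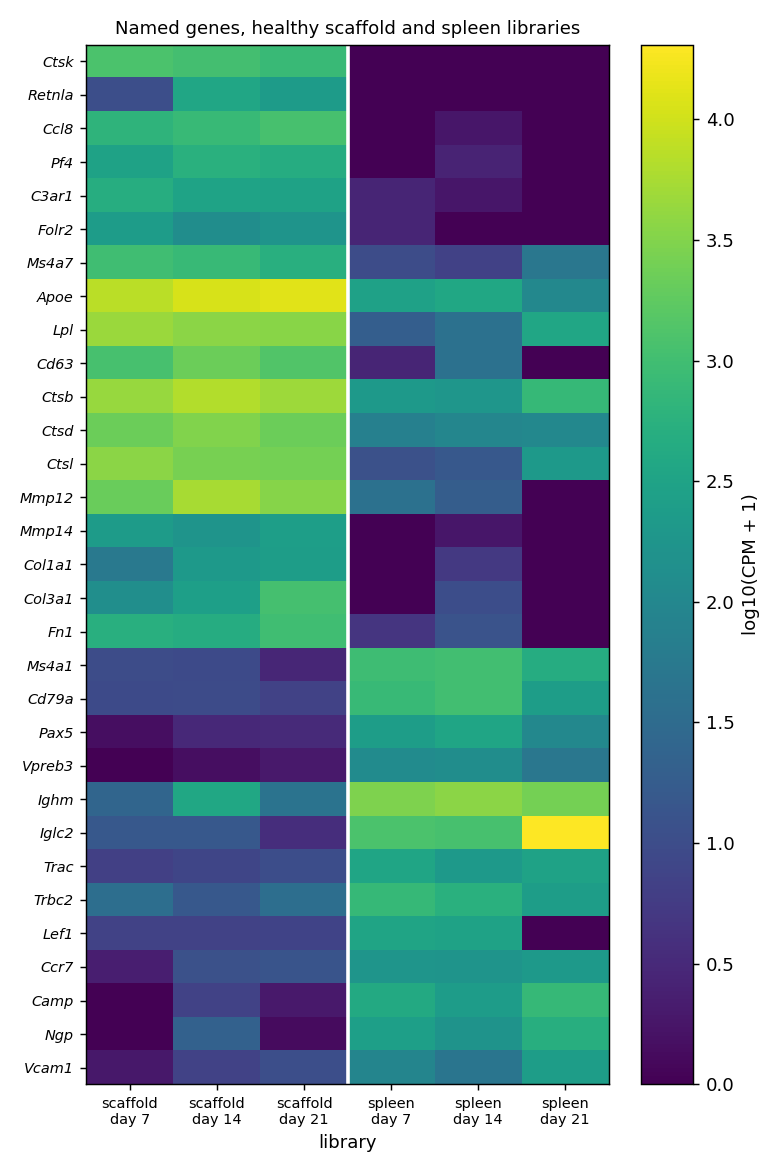
Level of 31 named genes as log10(CPM + 1) in the 3 healthy scaffold libraries (left) and the 3 healthy spleen libraries (right), one column per library. Rows from Ctsk to Fn1 are mostly brighter in scaffold than in spleen, and rows from Ms4a1 to Vcam1 mostly the opposite. Lef1 is dark at spleen day 21 too, and Retnla is dim at scaffold day 7. Iglc2 is brightest at spleen day 21, where 384 of its 402 UMIs come from 1 barcode.

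Lysosomal proteases and their partners followed the same direction, with 18 of 21 tested genes higher and 2 lower (13 and 0 without day 7, 15 and 0 without day 14). Ctsd, the aspartic protease cathepsin D, had 2219, 3173 and 2201 CPM in healthy scaffold, against 74.0, 94.6 and 102 CPM in healthy spleen (log2 5.06 ± 0.51, SE, edgeR adjusted p = 2.57e-20). Ctsl, cathepsin L, had 3579.8, 2626 and 2543 CPM, against 10.8, 14.4 and 203 CPM, and 69.3% of its scaffold UMIs lay in cluster 5. Ctsb, cathepsin B, had 4354, 6469 and 4681 CPM, against 202, 182 and 761 CPM. All 3 cathepsins were higher in every scaffold library than in any spleen library. The 2 members that fell, Ctse and Ctsw, named here after their values were seen, had log2 differences of -2.81 and -1.94, and Ctsw is a protease of cytotoxic lymphocytes.

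Many lysosomal genes carry an E-box that the factor TFEB and its relatives bind. The letters CACGTGAC were searched on both strands of the 300-base RefSeq promoters (GRCm38.p6, 250 bases before to 50 after the start) and were in 2.55% of 27025 gene symbols. Among the 14 tested lysosomal genes with a RefSeq promoter, 4 held them: Ctsd, Ctsa, Lgmn and Lamp1, whose log2 differences were 5.06, 3.43, 4.08 and 3.24. The windows are shown 5′ to 3′ in the direction of the gene, with the match on either strand in capitals.
Ctsd, chr7:142388049-142388077, minus strand: tccccCACGTGACctgtatccagtcattc
Ctsd, chr7:142387902-142387941, minus strand: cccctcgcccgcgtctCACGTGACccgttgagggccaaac
Ctsa, chr2:164833743-164833801, plus strand: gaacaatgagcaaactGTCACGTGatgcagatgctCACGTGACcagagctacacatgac
Lgmn, chr12:102439120-102439159, minus strand: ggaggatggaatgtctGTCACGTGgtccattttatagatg
Lamp1, chr8:13159117-13159156, plus strand: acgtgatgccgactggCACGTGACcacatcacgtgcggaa
Motif and genes were chosen after the differences were known, and a match of letters is a description of the promoter only.

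Matrix-degrading enzymes and matrix genes were mostly higher. Of 17 tested metalloproteinases, inhibitors and plasminogen activators 13 were higher and 1, Mmp8 of neutrophil granules, was lower (log2 -1.66). The higher count was 5 without day 7 and 7 without day 14. Mmp12, the macrophage elastase, had 2126, 5587 and 3427 CPM in healthy scaffold, against 39.7, 17.7 and 0 CPM in healthy spleen, a log2 difference of 7.24 ± 0.58 (SE, edgeR adjusted p = 7.84e-33). Its UMIs lay in clusters 5 (59.6%) and 0 (22.0%). Mmp14, a membrane-bound collagenase, had 229, 167 and 259 CPM, against 1 UMI in spleen, a ratio of 392 with a counting interval of 70.2 to 15475. Mmp19 had 140.4, 183 and 293 CPM, against 1.81, 1.69 and 50.8 CPM, and Plau, the urokinase plasminogen activator, 167, 114 and 100.4 CPM, against 1.81, 6.75 and 0 CPM. The inhibitor Timp1, with 0 spleen UMIs, was at least 32.1-fold higher (edgeR adjusted p = 1.67e-08).

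AP-1 is a family of factors known to act on several metalloproteinase genes. The letters TGAGTCA, searched on both strands, were in 5.95% of promoters and in 4 of 13 of the tested list members with a promoter: Mmp3, Mmp12, Mmp13 and Plaur. None of these 13 promoters held the E-box letters above, and 1 of the 14 lysosomal promoters, that of Psap, held TGAGTCA. The 3 metalloproteinase windows lie in a row of related genes on chromosome 9, and the match starts 46 (Mmp3), 44 (Mmp12) and 35 (Mmp13) bases before the start.
Mmp3, chr9:7445760-7445798, plus strand: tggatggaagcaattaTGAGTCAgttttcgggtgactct
Mmp12, chr9:7347314-7347352, plus strand: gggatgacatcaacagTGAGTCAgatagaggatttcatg
Mmp13, chr9:7272463-7272501, plus strand: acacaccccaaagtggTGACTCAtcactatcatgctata
Mmp3 and Mmp13 passed the test on 1 spleen UMI each, with ratios of 60.7 (counting interval 10.8 to 2406) and 31.6 (5.58 to 1257), while Plaur, the urokinase receptor, did not (log2 1.25).

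Of 30 extracellular matrix and fibroblast genes 19 were tested, 17 were higher and none lower, with 8 higher without day 7 and 9 without day 14. Col3a1, a fibrillar collagen chain, had 134, 272 and 1104 CPM in healthy scaffold, against 0, 9.29 and 0 CPM in healthy spleen. Col1a2 had 107, 234 and 535 CPM, against 0, 4.22 and 0 CPM, and Col1a1 53.8, 218 and 248 CPM, against 0, 4.22 and 0 CPM. All 3 chains were highest at the later days in scaffold, with 1 library a day and hence no test of time, and fibroblast-like cells were 0.669%, 3.73% and 5.63% of scaffold cells on the same days. Fibroblast-like cells held 98.2% of the scaffold UMIs of Col3a1. Fn1, fibronectin, had 525, 466 and 978 CPM, against 3.61, 11.8 and 0 CPM, and lay mostly elsewhere, with 43.2% of its UMIs in cluster 0 and 15.6% in fibroblast-like cells. Endothelial genes were few: 2 of 15 passed the filter, Eng higher on 3 spleen UMIs (ratio 8.93, counting interval 2.98 to 43.9) and Pecam1 lower (log2 -4.06). No class was named endothelial. Of the spleen Pecam1 UMIs 64.8% lay in B cell-like and 27.0% in T cell-like cells. The scaffold Eng UMIs lay 27.4% in cluster 5 and 24.8% in macrophage-like cells.

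Chemokines that draw monocytes and neutrophils were higher, and the genes of lymphoid traffic went both ways. Of 15 tested myeloid chemokines 14 were higher and none lower, with 7 higher without day 7 and 8 without day 14. Ccl9 had 692, 1125 and 1059.6 CPM in healthy scaffold, against 7.22, 20.3 and 50.8 CPM in healthy spleen, and Ccl6 949, 1974 and 1219.5 CPM, against 88.5, 79.4 and 102 CPM. The 2 chemokines differed by 6.04 and 4.13 on the log2 scale (edgeR adjusted p = 2.3e-20 and 1.51e-13). Among lymphoid chemokines and chemokine receptors 4 of 12 were higher, among them Ccr1, Ccr2 and Cx3cr1, receptors found on monocytes and macrophages, and 5 were lower (Ccl5, Ccr6, Ccr7, Cxcr5 and S1pr1). Without day 7 these counts were 0 and 1, and without day 14 they were 2 and 3. Cxcr5, which guides B cells into follicles, had 3 UMIs in all of healthy scaffold and 97 in healthy spleen, a ratio of 0.00708 with a counting interval of 0.00144 to 0.0213. Ccr6 fell by 5.12 on the log2 scale.

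Among cytokines 9 of 16 tested genes were higher and 2 lower (2 and 1 without day 7, 5 and 0 without day 14). Il1rn, the antagonist of interleukin 1, had 433, 430.4 and 507 CPM in healthy scaffold, against 18.1, 13.5 and 0 CPM in healthy spleen (log2 4.96 ± 0.60, SE, edgeR adjusted p = 2.35e-14). Igf1, a growth factor that macrophages secrete in repair, had 362, 326 and 290.2 CPM, against 19.9, 16.9 and 50.8 CPM. Il1b, the agonist, had 649.9, 119.8 and 1655 CPM, against 247, 237 and 0 CPM. The groups overlapped for Il1b, and its call rests on day 21 (log2 1.34, edgeR adjusted p = 0.0402, and 0.33, adjusted p = 0.554, without that day). The members lower in scaffold were Ltb, lymphotoxin beta of lymphocytes, and Il16, with log2 differences of -2.87 and -2.98.

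Alternative activation genes were higher in 12 of 16 tested and lower in none, with 3 higher without day 7 and 6 without day 14. Clec4n, a fungal-sensing lectin, had 264, 362 and 307 CPM in healthy scaffold, against 12.6, 14.4 and 50.8 CPM in healthy spleen. Ccl24, an eosinophil chemokine, had 201, 251 and 263 CPM, against 0, 11.8 and 203 CPM, and its ranges overlapped only through 4 UMIs of the thin spleen library. Arg1, which diverts arginine from nitric oxide, had 0 spleen UMIs and was at least 30.8-fold higher (edgeR adjusted p = 4.38e-09). Chi3l3, another marker of this state, did not pass (log2 -0.07).

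Genes of splenic red pulp macrophages went both ways. Of 12 tested, 6 were higher and 3 lower (3 and 0 without day 7, 3 and 1 without day 14). The ferritin chains were among the higher: Fth1 had 6494, 11315 and 8143 CPM in healthy scaffold, against 1192, 1519.7 and 965 CPM in healthy spleen, and Ftl1 6785, 11311 and 6822 CPM, against 937, 773 and 1117 CPM. The lower members were Vcam1, Spic and Slc40a1, an adhesion molecule, the lineage factor of red pulp macrophages and the iron exporter. Vcam1 had 0.861, 6.14 and 9.75 CPM in healthy scaffold, against 90.3, 45.6 and 254 CPM in healthy spleen (log2 -4.10 ± 0.57, SE, edgeR adjusted p = 2.7e-11), and 33.0% of its 109 spleen UMIs lay in 1 cell of day 7. Spic and Slc40a1 differed by -2.30 and -1.95 on the log2 scale. Globins were lower too, with Hbb-bs at 1.29, 43.0 and 0.325 CPM, against 341, 51.5 and 1625 CPM, and 61.3% of its spleen UMIs in 1 cell. Its log2 difference was -5.97, and -2.96 without day 21. The near-identical globin genes share reads, so the member is uncertain.

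Type I interferon genes were higher in 10 of 22 tested and lower in none, with 0 higher without day 7 and 1 without day 14. Oas1a, an antiviral RNA sensor, had 81.4, 50.5 and 69.9 CPM in healthy scaffold, against 3.61, 5.91 and 0 CPM in healthy spleen. Ifi27l2a had 2315, 948 and 1454 CPM, against 491, 659 and 406 CPM, and Rsad2, an antiviral enzyme, 87.9, 22.8 and 136 CPM, against 3.61, 4.22 and 50.8 CPM. Interferon gene levels varied between scaffold days, with day 14 the lowest for each of the 3, and the Rsad2 groups overlapped. Without day 21, 15 of 22 were higher and 2 lower. Glycolysis and hypoxia genes were higher in 10 of 22 (0 without day 7, 1 without day 14), such as Hk2, the inducible hexokinase, with 63.7, 89.9 and 111 CPM, against 5.42, 11.8 and 50.8 CPM. Without day 21, 16 of 22 were higher.

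B cell genes were lower nearly throughout. Of 19 B cell identity genes in the files 14 were tested, 13 were lower and none higher (background 8.87% lower). Without day 21, 19 were tested and 18 were lower. The counts of this list without day 7 or without day 14 are not reported here. Over all genes the lower calls fell from 818 to 64 without day 7 and to 101 without day 14. Ms4a1, which encodes CD20, had 9.04, 8.34 and 1.95 CPM in healthy scaffold, against 921, 1009.7 and 457 CPM in healthy spleen. Cd79a, a chain of the B cell receptor, had 8.18, 8.78 and 6.18 CPM, against 789, 993 and 254 CPM, and Pax5, the B lineage factor, 0.431, 2.19 and 2.28 CPM, against 251, 344 and 102 CPM. The groups did not overlap in any of the 3, whose log2 differences were -6.81, -6.16 and -6.98 (edgeR adjusted p = 5.32e-28, 4.52e-22 and 8.03e-22). Dtx1, a Notch regulator, had 1 UMI in scaffold and 122 in spleen, a ratio of 0.00188 with a counting interval of 4.71e-05 to 0.0107. Its spleen UMIs lay in B cell-like (53.3%) and T cell-like (40.2%) cells.

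Vpreb3, a chaperone of the B cell receptor, had 4 UMIs in healthy scaffold and 216 in healthy spleen. Its promoter was the only one among 10 promoters of the tested B cell list to hold the octamer ATTTGCAT (both strands, 1.97% of promoters), the site of POU-family factors of B cells.
Vpreb3, chr10:75948239-75948278, plus strand: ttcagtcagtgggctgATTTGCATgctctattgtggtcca
The match starts 45 bases before the start. None of the 10 promoters held the E-box or AP-1 letters searched above.

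Immunoglobulin genes made up 6 of the 10 largest falls. Of these, Igkv2-137 and Iglv2 had most of their spleen UMIs in 1 cell, with 66.3% for Iglv2. In the others 1 cell held at most 22.5%, the value of Igkv1-135. Of 8 tested members of the immunoglobulin and plasma cell list 5 were lower and 1 higher, Sdc1, a plasma cell surface proteoglycan that other cells also make, with 45.7, 46.1 and 64.0 CPM in healthy scaffold, against 5.42, 2.53 and 0 CPM in healthy spleen (log2 3.77, edgeR adjusted p = 3.03e-06). Iglv2, a lambda variable segment, had 1 UMI in healthy scaffold, against 127, 31 and 311 UMIs in healthy spleen. All 311 UMIs of day 21 came from barcode atgcttgaagtg, as did 384 of the 402 Iglc2 UMIs of that library. Without day 21 Iglv2 still passed (edgeR adjusted p = 1.08e-09). Its ratio of scaffold over spleen totals was 0.000488 with a counting interval of 1.23e-05 to 0.00273. Igkv2-137 had 0 UMIs in scaffold and 303 in spleen, at least 441-fold lower in scaffold, but 85.1% of the spleen UMIs lay in 1 cell of day 7. Igkv1-135 and Igkv3-12, with 40 and 32 spleen UMIs and none in scaffold, were spread over 13 and 17 spleen cells. Variable segments resemble each other, so reads could be split between them. Ighm, the constant gene of IgM, had 24.1, 362 and 42.3 CPM in healthy scaffold, against 2979, 3681 and 2538 CPM in healthy spleen, and 65.0% of the scaffold UMIs lay in 1 cell of day 14.

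T cell genes fell in 19 of 19 tested members. Leaving out a day gave 5 without day 7, 9 without day 14 and 19 of 20 without day 21. Trac, the constant part of the alpha receptor chain, had 5.60, 7.02 and 9.43 CPM in healthy scaffold, against 345, 210.2 and 305 CPM in healthy spleen (log2 -5.07 ± 0.56, SE, edgeR adjusted p = 4.67e-17). Trbc2, of the beta chain, had 34.9, 14.5 and 34.5 CPM, against 785, 550.5 and 254 CPM, and Cd8a 0.861, 0.878 and 1.63 CPM, against 43.3, 36.3 and 203 CPM. Genes of naive lymphocytes fell in 10 of 12 tested, but in 0 without day 7 and 1 without day 14. Ccr7, the receptor for entry into lymphoid tissue, had 1.29, 10.5 and 12.4 CPM in healthy scaffold, against 173, 169 and 203 CPM in healthy spleen. Lef1 and Tcf7, factors of naive T cells, had 6.03, 6.14 and 6.50 CPM and 8.18, 3.95 and 11.1 CPM in healthy scaffold, against 327, 303 and 0 CPM and 352, 173 and 0 CPM in healthy spleen. Their day 21 spleen value of 0 stands for 0 of 19698 UMIs and allows up to 3 UMIs, so the groups of both overlap. Il7r, a survival receptor of lymphocytes, did not pass (log2 0.26).

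Cytotoxic and antigen-presenting genes were mixed. Among natural killer and cytotoxic genes 1 of 13 passed, Ccl5, with 40.1, 75.5 and 63.1 CPM in healthy scaffold, against 168, 534 and 355 CPM in healthy spleen. Without day 21, 5 of the 13 were lower, as with library totals alone. MHC class II genes were mixed: 1 of 12 was higher, Cd80, and 4 were lower (6 of 13 without day 21, 1 without day 7 or without day 14), led by H2-Ob of B cells (log2 -5.44), while Cd74, the invariant chain, differed by -0.18 and did not pass. Ribosomal protein genes were lower in 16 of 84 tested and higher in 1. They were lower in 50 without day 21, 51 with library totals alone, and 0 without day 7 or without day 14. The summed level of ribosomal genes was 102892, 95985.6 and 84428 CPM in healthy scaffold, against 180858, 211220 and 186009 CPM in healthy spleen.

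Neutrophil genes were mixed. Of 5 tested granule and progenitor genes 4 were lower and none higher (2 lower without day 14). Camp, a granule antimicrobial peptide, had 0, 6.14 and 0.975 CPM in healthy scaffold, against 415, 242 and 761 CPM in healthy spleen, and Ngp 0, 21.1 and 0.325 CPM, against 273, 161 and 508 CPM. For each, 1 spleen cell of day 7 held a large share of the spleen UMIs, 40.4% for Camp and 41.8% for Ngp. Mature neutrophil genes went both ways, with 2 of 11 higher and 4 lower: Clec4d, a lectin, rose by 4.21 and Mmp9, a gelatinase, by 3.98, while Retnlg fell (log2 -1.92). Both higher genes lay mainly outside neutrophil-like cells: cluster 15 held 79.2% of the scaffold Mmp9 UMIs and neutrophil-like cells 4.73%, and Clec4d lay in cluster 0 (31.0%), cluster 5 (26.9%) and neutrophil-like cells (23.0%). The lower count was 0 without day 7 or without day 14. Cell cycle genes were near background, with 1 of 22 higher and 2 lower. Mki67 had 229, 51.8 and 127 CPM in healthy scaffold, against 419, 198 and 660.0 CPM in healthy spleen, and 9 of its 13 UMIs in the day 21 spleen library came from the barcode with most UMIs.

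Within a class the comparison was limited by few cells. Macrophage-like cells could not be compared, since healthy spleen held 1. B cell-like cells numbered 13 and 11 in healthy scaffold on days 7 and 14, against 174 and 687 in healthy spleen, and T cell-like cells 14 and 22, against 108 and 295. The B cell-like class joins clusters 1 and 4, and their mix differed by tissue. Cluster 1 had 11 and 11 cells in healthy scaffold on these days, against 87 and 378 in healthy spleen, and cluster 4 had 2 and 0, against 87 and 309. Values within the class therefore compare in part different clusters. In B cell-like cells of these 2 days 7 of 2357 tested genes (0.297%) were higher in scaffold and 0 (0%) lower, with 132 genes at an unadjusted p under 0.05 (edgeR, day as block, 1 residual degree of freedom). The gene with the smallest p was Lpl, lipoprotein lipase, with 9 UMIs in the scaffold B cell-like cells (log2 5.28, edgeR adjusted p = 5.39e-07). Among genes of antibody secretion Igj, the joining chain, had 30073 and 19130.2 CPM in scaffold cells, against 2481 and 1858 CPM in spleen cells (log2 3.34 ± 0.64, SE, edgeR adjusted p = 0.000147). Xbp1, the factor of plasma cell secretion, had 790.0 and 1275 CPM, against 125 and 106 CPM. Dnajc3, a chaperone of the endoplasmic reticulum, also rose. Keeping the best barcode of each family split off a plasma cell-like class. Whether such cells within the B cell-like class underlie these values was not tested. Igkv9-120 rose through day 14 alone, and Prosc through 7 UMIs. The last was Lyz2, the lysozyme of myeloid cells, with 22 UMIs in the scaffold B cell-like cells. Free RNA from macrophages in these droplets was not tested. In T cell-like cells 0 of 1765 genes were called in either direction (0% and 0%), with 156 at an unadjusted p under 0.05. Apoe was at 569 and 925 CPM in scaffold T cell-like cells, against 26.7 and 32.8 CPM in spleen T cell-like cells.

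The same tissue contrast in tumour-bearing mice compared 6 other libraries. It came from 1 fit of 12 libraries that includes the 6 healthy ones, so filter, spread and day terms were shared with them. In that fit, 1339 of 10968 genes (12.2%) were higher in tumour-bearing scaffold than in tumour-bearing spleen and 878 (8.01%) lower. Of the 2244 genes called in healthy mice 2054 had the same direction in tumour-bearing mice and 1117 were called in it, which is 49.8% of the healthy calls and 50.4% of the 2217 tumour-bearing calls. Only 5 were called in the opposite direction. The share of all tested genes with the same direction was not computed, so the 2054 have no baseline here. Lipid and foreign-body genes were higher in 21 of 24 in tumour-bearing mice and 23 of 24 in healthy mice, and B cell genes lower in 17 of 19 and 13 of 14. Ctsk had 1057, 987 and 701 CPM in tumour-bearing scaffold, against 0.67, 1.69 and 0.369 CPM in tumour-bearing spleen (edgeR adjusted p = 1.34e-06), and Ms4a1 differed by -6.44 on the log2 scale (edgeR adjusted p = 6.49e-06).

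The difference between the 2 tissue contrasts was called for 0 of 10968 genes in either direction (0% and 0%), with 1048 genes at an unadjusted p under 0.05. The 5 genes with the smallest p had a lower log2 ratio of scaffold over spleen in tumour-bearing mice than in healthy mice. Anxa1, an anti-inflammatory annexin abundant in neutrophils, had 1503, 1811 and 2310.2 CPM in tumour-bearing scaffold and 805, 4768 and 7151 CPM in tumour-bearing spleen. Its spleen value was thus below the scaffold value on the earliest day and above it on the later days. In healthy mice Anxa1 had 1376, 1915 and 929 CPM in scaffold and 117, 74.3 and 355 CPM in spleen. The tumour-bearing minus healthy difference was -5.01 ± 0.93 on the log2 scale (SE, edgeR adjusted p = 0.152). The scaffold values of the 2 states overlap, and the spleen values do not. For Anxa2 and Ifitm2 it was -4.04 ± 0.66 and -3.95 ± 0.67 (edgeR adjusted p = 0.108 each), and for Lilrb4 and Gp49a -3.13 ± 0.53 and -3.13 ± 0.57 (edgeR adjusted p = 0.108 and 0.152). Lilrb4 and Gp49a encode near-identical receptors whose reads could be split.

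**Figure D5:**
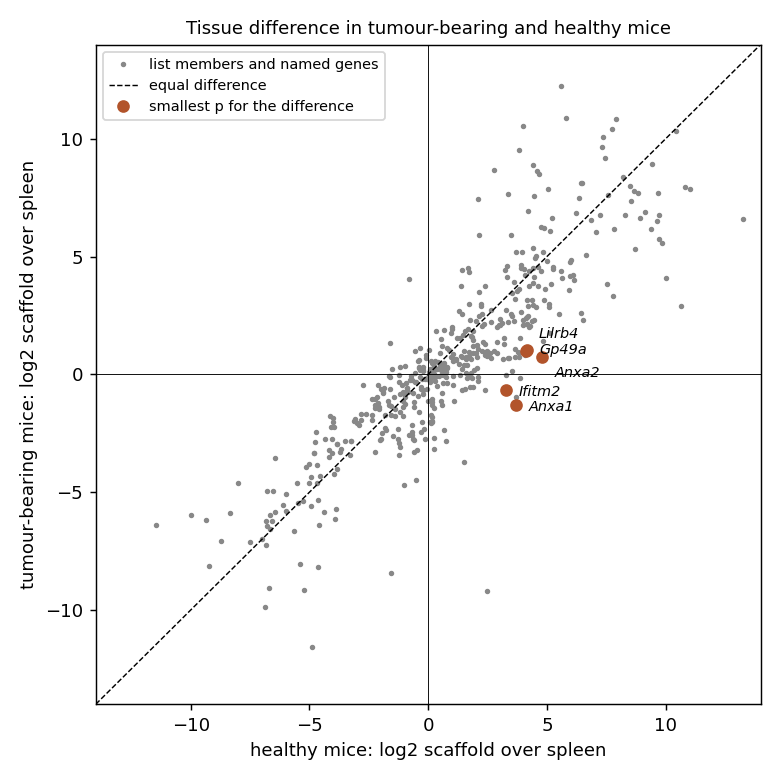
Log2 scaffold over spleen in tumour-bearing mice (vertical) against healthy mice (horizontal) for 494 list members and named genes, from 1 fit of 12 libraries. Grey points are genes, the dashed line marks equal differences, and the 5 coloured points are the genes with the smallest p for the difference, all below the line.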

How the data were processed

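Drop-seq libraries of healthy scaffold and healthy spleen were analysed. The authors deposited a table of unnormalised UMI counts for each library, with genes in rows and barcodes in columns. The submitters' processing notes name the build mm10 and the tool Seurat 2. About 1000 bead-cell pairs were amplified per library, per the labels' protocols. The sources used here give no aligner, annotation or cell calling.

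Barcodes with at least 200 genes and under 20% mitochondrial UMIs were kept. A barcode found in 2 or more libraries of a day stayed only where its UMIs were at least 5 times the next. Counts were summed per library and tested with edgeR 4.0.16 (R 4.3.3, TMM factors, filterByExpr, glmQLFit and glmQLFTest, tissue and day as terms, Benjamini-Hochberg adjustment). The fit had 2 residual degrees of freedom. Each gene's spread was taken from a trend with abundance shared across genes, not from its own values (common biological coefficient of variation 0.299). The day pairs the libraries by design, per the labels. Same-day deviations from the group means correlated at 0.10, -0.08 and -0.14 across genes on days 7, 14 and 21, and other day pairs between -0.18 and 0.14. The tumour-bearing contrast and the difference between contrasts came from 12 libraries with 6 residual degrees of freedom.

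Cells of the 6 libraries were clustered with scanpy 1.11.5 (2000 variable genes, 30 components, 15 neighbours, Leiden resolution 1, leidenalg 0.10.2, igraph 0.11.9) into 22 clusters, of which 8 stayed unnamed. The naming thresholds (3 or more markers at 2 or more times the level of other cells, at least 1 among the 10 leading genes and no other class with as many there) were chosen once cluster contents were known. Scrublet marked 0.390% of 5126 cells and removed none, so doublets may remain. Intervals cover counting error only. The planned minimum of 20 cells per class and library left no paired fit, so 10 was used for B and T cell-like cells. Scripts were tested on simulated counts.

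The members, the 36 gene lists and the tests were chosen with earlier results of these data known. Genes were named by rule: among called genes with the same direction on all 3 days and a mean of 50 or more CPM in the higher tissue, the 10 largest changes each way; up to 4 called members per list by adjusted p, or the 2 most abundant where under 2 were called; up to 6 largest changes each way among called genes within a class; and the 5 smallest p of the difference between contrasts. Further list members are named after their values were seen, and a few genes are not reported here. Alternatives were another scaling, filter, tool, block, cell filter, barcode rule, library set and each day left out. Promoters are from RefSeq (GRCm38.p6).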

Additional observations from a re-analysis of the deposited data

How the results depend on the processing

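Most alternatives changed 1 choice, and those that changed more are named with both. Of 137 named genes 129 were called. The sign of every gene called in the healthy comparison held in each alternative that also called it. With 1426 genes higher and 818 lower as reported, the lower count became 1238 with library totals alone, 431 with DESeq2, 508 with no shared barcode kept at all, and 3 with all barcodes kept, where the higher count was 0. Leaving out 1 day in turn gave 150 to 2018 higher and 64 to 1757 lower. The low ends came without day 7 (150 and 64) and without day 14 (236 and 101), where the thin day 21 spleen library is 1 of 2 spleen libraries and 1 residual degree of freedom is left; the high ends came without day 21. A pair of alternatives chosen after seeing the data, 18 libraries and all barcodes with day 21 left out, gave 1563 and 1745 lower. Without the replicate block the counts were 1649 and 980, and all 2244 calls kept their direction.

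Cell classes called were 4 higher and 2 lower. With all barcodes kept both were 0, and without 1 day in turn they were 2 to 3 higher and 1 to 2 lower. Without the replicate block 5 were higher, the neutrophil class added, and 2 lower. The conventional dendritic class turned to a log2 ratio of 0.67 with all barcodes kept (-1.30 to 0.54 as days were left out), the mast cell or basophil class to 3.80 without day 14 (from -2.97 without day 7) and the neutrophil class to -0.10 with at least 400 genes, none of them called in any of these. Within classes the fits without the replicate block also took in a day 21 library and tested 242 genes in B and 377 in T cell-like cells, against 2357 and 1765, so the block's own effect was not tested. In B cell-like cells 0 genes were called there against 7, and 1 lower with no filter. In T cell-like cells the higher and lower counts were 22 and 5 without the replicate block, 17 and 6 without it at 20 cells, 3 and 0 with DESeq2 size factors, and 6 and 4 with no filter. Leaving out a day left no residual degree of freedom there. Tumour-bearing counts were 702 to 1578 higher and 288 to 847 lower as days were left out, the low ends without day 14, and 509 lower with all barcodes kept. The difference between contrasts gave 18 and 234 genes with no filter, 0 to 103 and 0 to 185 as days were left out (high ends without day 7), and 5 lower in 18 libraries.

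Named genes that changed sign were Pnpla2 (0.023 with DESeq2 size factors, 0.14 with no filter, 0.21 without day 21 and -0.49 without day 14, 0.084 with all barcodes kept, 0.23 in 18 libraries and 0.23 with all barcodes, both without day 21), 1100001G20Rik (0.34) and Lcn2 (0.054) with no shared barcode, Epcam (-1.83 without day 14, 3.25 without day 7) and Ltf (0.15 without day 7, -2.83 without day 21), each uncalled where its sign changed. Depth limits every value of the day 21 spleen library, whose 27 cells hold 19698 UMIs.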
